A study of Rattus norvegicus with 120 samples.

Results

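The family of miR-204 and miR-211 was followed in rat hippocampus after status epilepticus (SE), a prolonged seizure. Its members are the 2 mature miRNAs rno-miR-204-5p and rno-miR-211-5p (miR-204-5p and miR-211-5p from here on), chosen by name among the 666 miRNAs listed in small RNA sequencing of 3 stages after SE. All rats were male Wistar rats and all, controls included, first received LiCl. Pilocarpine, a muscarinic agonist, then induced SE on postnatal day 12 in the infancy-onset arm and on day 60 in the adult-onset arm. Paraldehyde followed the onset of SE. Controls had saline instead of pilocarpine, and paraldehyde is not described for them. The authors' paper, which gives sex, strain, LiCl and paraldehyde, describes rats of the chronic stage only. The whole hippocampus was taken at the acute stage (24 hours), the latent stage (1 week) or the chronic stage (3 months), so that infancy-onset rats were younger than adult-onset rats at each stage. Counts were at hand for 9 SE rats and 9 controls of the adult-onset arm and 8 SE rats and 9 controls of the infancy-onset arm at the acute stage. At the latent stage there were 10 rats in each group, and at the chronic stage 10 in each but the infancy-onset controls, with 9. Each library came from 1 rat. Rats are numbered here in the order of deposition, so a number marks no pair. At the chronic stage the adult-onset SE rats showed clonic motor seizures on video and the infancy-onset SE rats did not.

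MicroRNAs are short RNAs that lower the output of target messages, which they recognise mainly through the seed, the bases at positions 2 to 8. Members of a family share the seed and so share most predicted targets. miR-204 is processed from the gene of the ion channel Trpm3 and is abundant in the choroid plexus epithelium and the retinal pigment epithelium. miR-211 is processed from the gene of the related channel Trpm1 and is best known from melanocytes, where it is made together with its host. In the hippocampus the choroid plexus lies against the tissue and is not part of it.

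The mature sequences are shown because every comparison rests on telling the members apart. The seed and position 17 are in capitals.
miR-204-5p: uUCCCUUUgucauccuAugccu
miR-211-5p: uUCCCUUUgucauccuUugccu
Both are 22 bases long, share the seed UCCCUUU and differ at 1 position, counted from 1 at the 5′ end (A17U, from miR-204-5p to miR-211-5p). They were the only 2 with this seed among the 693 rat mature miRNAs of the RefSeq table used here. The first 16 bases are identical, and the reads kept by the authors were 16 to 28 bases long and could carry 1 mismatch. A read that ends before position 17 therefore fits both members, and a sequencing error at that position turns one into the other. In the GRCr8 build miR-204-5p lies at chr1:229743493-229743514 and miR-211-5p at chr1:127189353-127189374, both on the plus strand, within the genes Trpm3 and Trpm1.

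The hairpins, which carry both arms of each miRNA in capitals, are shown because the opposite arms are not near-identical.
Mir204: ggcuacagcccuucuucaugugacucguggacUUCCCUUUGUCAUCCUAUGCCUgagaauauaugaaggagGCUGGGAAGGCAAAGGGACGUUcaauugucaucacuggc
Mir211: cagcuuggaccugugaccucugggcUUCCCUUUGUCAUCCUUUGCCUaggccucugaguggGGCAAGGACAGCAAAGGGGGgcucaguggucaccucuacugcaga
The longest run that miR-204-3p and miR-211-3p share is 8 bases, so a read of a 3p arm belongs to 1 gene.

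miR-204-5p was abundant and miR-211-5p rare. Levels are given as CPM, the reads per 1000000 miRNA reads of a library after TMM scaling within a stage. miR-204-5p had 50523 reads in the acute, 85865 in the latent and 215102 in the chronic libraries, and was read in every library. miR-211-5p had 243, 912 and 11857 reads at the same stages and was at 0 in 6 of 35 acute and 1 of 40 latent libraries. Of the 912 latent reads, 226 came from latent infancy-onset SE rat 4. Of the 11857 chronic reads, 9937 came from chronic infancy-onset SE rat 2. Only miRNAs with more than 500 reads over the libraries of a stage were tested, so both members were tested at the latent and chronic stages and only miR-204-5p at the acute stage. Total miRNA reads per library ranged from 309975 to 28111631. The neuronal miRNAs miR-124-3p, miR-128-3p, miR-138-5p and miR-218a-5p summed to 45030 to 130379 CPM in every library.

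In order of their group medians, miR-204-5p levels ran from acute adult-onset SE rats (1624 CPM) and acute adult-onset controls (1384) through a middle run of 8 groups to the latent infancy-onset controls (432) and SE rats (386). The middle run held the chronic infancy-onset controls (786), chronic adult-onset controls (756), chronic adult-onset SE rats (735), latent adult-onset controls (731), chronic infancy-onset SE rats (709), acute infancy-onset controls (697), latent adult-onset SE rats (663) and acute infancy-onset SE rats (597). For miR-211-5p the order was chronic adult-onset SE rats (16.5), latent adult-onset SE rats (11.5), acute adult-onset controls (9.51), acute adult-onset SE rats (7.75), chronic infancy-onset SE rats (7.12), latent adult-onset controls (6.16), chronic infancy-onset controls (6.02) and chronic adult-onset controls (5.50). The acute infancy-onset SE rats (3.20), latent infancy-onset SE rats (2.80), latent infancy-onset controls (1.61) and acute infancy-onset controls (1.33) followed. In both orders the ranges of each pair of neighbouring groups overlapped. Stages were scaled separately, so the order across stages is a description.

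**Figure D1:**
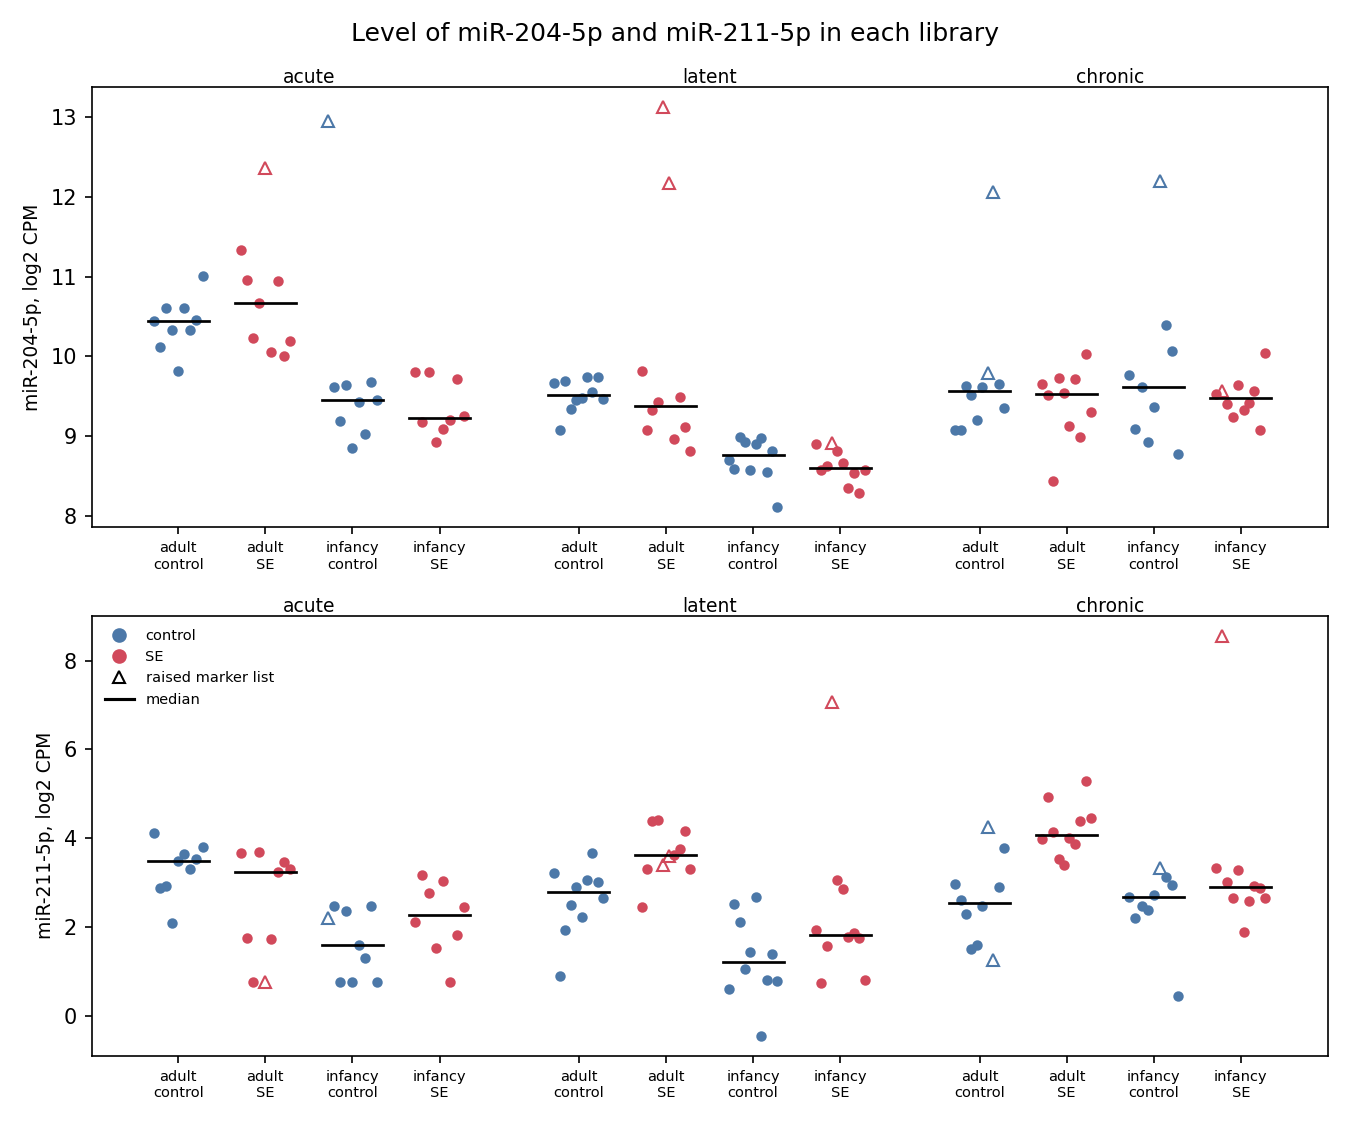
Level of miR-204-5p (top) and miR-211-5p (bottom) in each library with counts, as log2 CPM with a prior count of 2, by stage, onset age and treatment. Points are libraries, black lines are group medians and open triangles are the 9 libraries with a raised marker list. The 6 highest miR-204-5p points and the 2 highest miR-211-5p points are all such libraries.

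Some libraries stood apart, and they differed between the members. In 6 libraries the summed miRNAs of the Htr2c gene, which encodes a serotonin receptor of the choroid plexus, were over 6 times their group median. These were acute adult-onset SE rat 6, acute infancy-onset control 2, latent adult-onset SE rats 5 and 6, chronic adult-onset control 8 and chronic infancy-onset control 7. The list (miR-448-3p, miR-448-5p, miR-1298, miR-1912-3p, miR-764-3p and miR-764-5p) summed to 1945 to 14271 CPM in them and to 109 to 977 in the other 108 libraries. miR-204-5p was at 4280 to 8952 CPM in these 6 and at 275 to 2584 in the rest, with no overlap. miR-204-3p, its opposite arm, was at 12.1 to 26.6 in them and at 0 to 18.2 elsewhere. miR-211-5p did not stand apart in these 6 libraries. Its level was 0 to 11.4 CPM, and its ratio to the group median ran from 0 to 2.22. The 2.22 was that of acute infancy-onset control 2 and rested on 1 read. Chronic infancy-onset control 7 was at 1.62 times its group median and was the highest of its group (9.73 CPM).

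In 3 other libraries miR-182, miR-183-5p and miR-96-5p, a cluster known from photoreceptors, other sensory cells and the pineal gland, were over 6 times their group median. The cluster summed to 31098 CPM in latent infancy-onset SE rat 4, 10842 in chronic infancy-onset SE rat 2 and 5027 in chronic adult-onset control 7, against 14.7 to 327 in the other 111 libraries. miR-211-5p was at 133.9, 376.8 and 18.6 CPM in these 3, and at 0 to 38.6 in the rest. miR-204-5p was at 482, 756 and 881 in the same 3 libraries, 1.07 to 1.25 times the medians of their groups. The opposite arm miR-211-3p was listed only at the chronic stage, where 297 of its 300 reads came from chronic infancy-onset SE rat 2. Comparisons that hold any of these 9 libraries are given with and without them where the value moved by over 1.5 times or a call changed, a choice made after seeing the data, and the part of other tissue in the results was not tested. The 6 libraries with the raised Htr2c list were also the 6 highest in miR-204-5p. Leaving them out therefore had to lower miR-204-5p in the groups that held them. Such values describe the remaining libraries and are not independent tests.

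**Figure D2:**
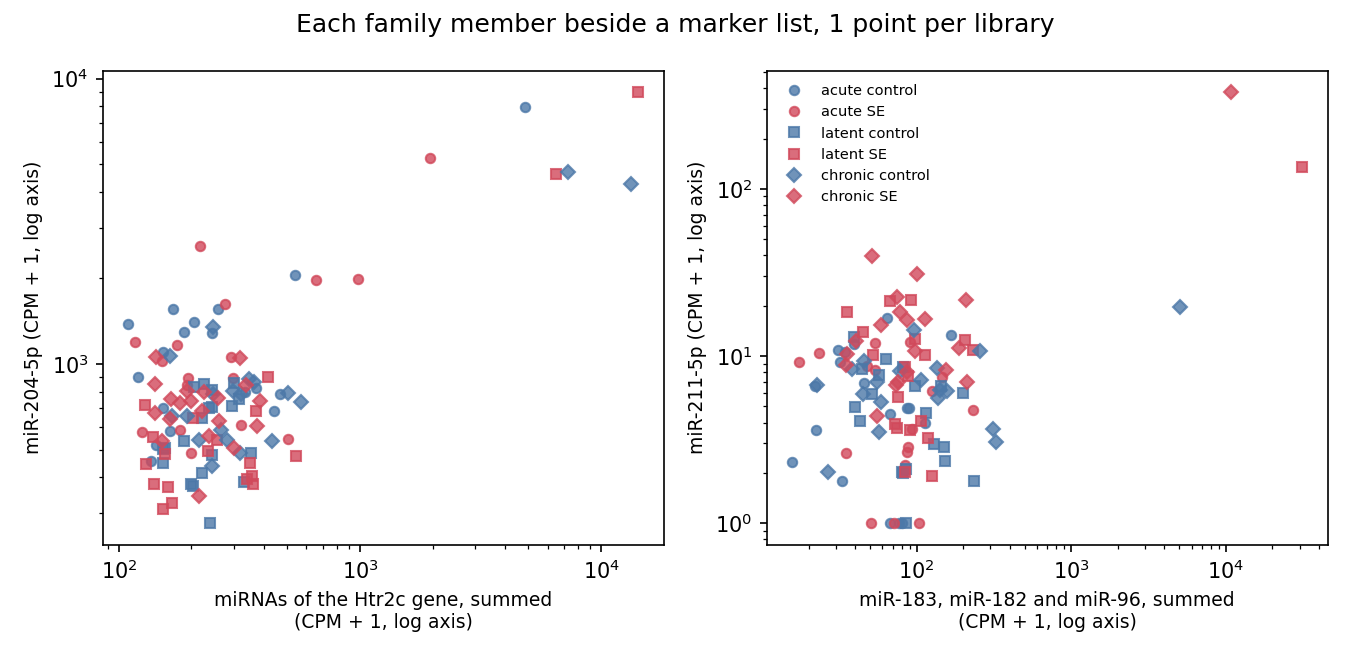
Left, miR-204-5p against the summed miRNAs of the Htr2c gene, and right, miR-211-5p against the sum of miR-96-5p, miR-182 and miR-183-5p, in CPM plus 1 on log axes, with 1 point per library. The 6 libraries at 1945 or more on the left hold the 6 highest miR-204-5p levels, and the 2 highest miR-211-5p levels on the right lie at 10842 and 31098.

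How many reads of miR-204-5p were counted as miR-211-5p was not measured in any library. The share of miR-211-5p was small where miR-204-5p was highest. In chronic adult-onset control 8, 9 reads of miR-211-5p stood beside 18816 of miR-204-5p, a share of 0.0478% of the family (Wilson 95% interval 0.0252% to 0.0908%). Acute adult-onset SE rat 6 had 0 beside 2422, which allows a share of up to 0.124%, and the shares of the other 4 libraries ran from 0.0372% to 0.246%. In the 10 chronic adult-onset SE rats miR-211-5p made up 1.31% to 4.79% of the family, and in their 10 controls 0.0478% to 2.07%. Intervals cover counting error only.

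miR-211-5p rose after adult-onset SE at the chronic stage while miR-204-5p did not pass the test there. miR-211-5p ran from 10.2 to 38.6 CPM (median 16.5, n = 10) after chronic adult-onset SE, and controls ran from 2.05 to 18.6 (median 5.50, n = 10). All 10 SE rats lay above the control median and 4 lay above every control. The mean was 19.5 ± 8.80 (SD) in SE rats and 6.93 ± 5.25 in controls. The level was 2.89-fold higher (log2 fold change 1.53, standard error 0.35, adjusted p = 0.0166 by the quasi-likelihood test of edgeR), in a comparison that called 1.36% of 442 miRNAs at an adjusted p under 0.05. The highest control was control 7, with the raised miR-183 cluster, and the lowest was control 8, with the raised Htr2c list. Without both, 8 of 10 SE rats lay above every control and the log2 fold change was 1.64 (standard error 0.32, adjusted p = 0.0087). Leaving out SE rat 9 ended the call (1.34, adjusted p = 0.0568), as did fitting the 4 groups of the stage together (1.57, adjusted p = 0.243).

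miR-211-5p was also higher 1 week after adult-onset SE. It ran from 4.70 to 20.6 CPM (median 11.5, n = 10) in SE rats of the latent adult-onset arm, and controls ran from 1.119 to 12.02 (median 6.16, n = 10). Of the SE rats 9 of 10 lay above the control median and 4 above every control. The level rose 2.13-fold (log2 fold change 1.09, standard error 0.32, edgeR adjusted p = 0.0411), where 7.39% of 406 miRNAs were called. SE rats 5 and 6, whose miR-204-5p was highest, were at 9.82 and 11.4 CPM of miR-211-5p, and without them the value was 1.15 (standard error 0.34, adjusted p = 0.0473). The call lay close to the threshold. It was lost without any 1 of controls 2, 3, 4, 5, 6 and 10 or of SE rats 3, 4 and 9 (adjusted p from 0.0509 to 0.086, log2 fold change 0.92 or more), and when all 4 groups were fitted together (1.11, adjusted p = 0.256).

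After infancy-onset SE the size of the miR-211-5p difference was set by 1 library at each stage. Latent infancy-onset SE rats ran from 0.927 to 133.9 CPM (median 2.80, n = 10) and controls from 0 to 5.62 (median 1.61, n = 10). The highest was SE rat 4, and the next highest was at 7.62. The estimate was a log2 fold change of 2.75 (standard error 0.91, edgeR adjusted p = 0.14), in a comparison that called 0.493% of miRNAs, and 0.48 (standard error 0.43, adjusted p = 0.689) without SE rat 4. Chronic infancy-onset SE rats ran from 3.35 to 376.8 CPM (median 7.12, n = 10) and controls from 1.03 to 9.73 (median 6.02, n = 9). All but SE rat 2 were at or under 9.78. Against controls this gave a log2 fold change of 2.88 (standard error 0.85, adjusted p = 0.244), and 0.34 (standard error 0.29, adjusted p = 0.644) without SE rat 2 and control 7. The chronic infancy-onset comparison called 0.0% of miRNAs (0 of 442), with 23 at an unadjusted p under 0.05 in edgeR and 0 called by DESeq2.

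Over both onset ages, with onset age as a covariate, miR-211-5p passed the test at the latent and chronic stages. At the latent stage the log2 fold change was 1.82 (standard error 0.48, edgeR adjusted p = 0.0115), with 12.6% of miRNAs called, and 0.91 (adjusted p = 0.025) without latent infancy-onset SE rat 4. At the chronic stage it was 2.25 (standard error 0.49, adjusted p = 0.00659), with 2.26% called, and 0.92 (adjusted p = 0.0342) without chronic infancy-onset SE rat 2. Both stayed called without any 1 library, and without all libraries of raised marker lists (0.92, adjusted p = 0.0389, and 0.99, adjusted p = 0.0276). At the latent stage limma voom with sample weights gave 0.98 (adjusted p = 0.0683). In the same latent comparison all 3 members of the miR-183 cluster rose (miR-96-5p at 3.04, miR-183-5p at 2.84 and miR-182 at 2.56), as did miR-1298 (1.85) and miR-448-3p (1.51) of the Htr2c list and miR-34b-3p (0.60) and miR-34c-3p (0.70) of ciliated cells. In the chronic one miR-1912-3p (-2.32), miR-1298 (-2.64) and miR-448-3p (-2.24) of the Htr2c list fell, and none of the miR-183 cluster passed. None of these marker miRNAs passed without the libraries of raised marker lists. Those libraries were chosen by the Htr2c list and the miR-183 cluster, so for these 2 lists the loss was built into the choice. It therefore says nothing about miR-211-5p, and the part of other tissue was not tested.

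The change of miR-211-5p after adult-onset SE did not pass a test of its difference from that after infancy-onset SE. Adult-onset minus infancy-onset, the log2 fold changes differed by -1.65 (standard error 0.95, edgeR adjusted p = 0.52) at the latent and -1.34 (standard error 0.92, adjusted p = 0.804) at the chronic stage. Without the libraries of raised marker lists it had the opposite sign, 0.68 (standard error 0.59, adjusted p = 0.692) and 1.38 (standard error 0.43, adjusted p = 0.197). For miR-204-5p it was 1.62 (standard error 0.59, adjusted p = 0.272) at the acute, 1.42 (0.53, 0.139) at the latent and 0.16 (0.51, 0.986) at the chronic stage. When the libraries of raised marker lists were left out, these were 0.15 (adjusted p = 0.823), -0.10 (adjusted p = 0.842) and 0.17 (adjusted p = 0.886), and without acute infancy-onset control 2 alone the first was 0.49 (adjusted p = 0.472). These tests called 0.261% of miRNAs at the acute, 3.2% at the latent and 0.905% at the chronic stage.

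miR-204-5p passed the test of SE against control at no stage and neither onset age. In acute adult-onset rats it ran from 1024 to 5258 CPM (median 1624, n = 9) after SE and from 899 to 2051 (median 1384, n = 9) in controls. The log2 fold change was 0.51 (standard error 0.27, edgeR adjusted p = 0.261), with 3.66% of miRNAs called, and 0.18 (standard error 0.20) without SE rat 6. In acute infancy-onset rats it ran from 484 to 893 (median 597, n = 8) after SE and from 457 to 7931 (median 697, n = 9) in controls, where the highest, control 2, was far above the next at 819.5. That comparison gave -1.11 (standard error 0.49, adjusted p = 0.272), with 4.96% called, and -0.0049 (standard error 0.15, adjusted p = 0.992) without control 2.

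At the latent stage the highest miR-204-5p levels were those of 2 adult-onset SE rats. Their levels ran from 446 to 8952 CPM (median 663, n = 10), against 538 to 855 (median 731, n = 10) in controls. SE rats 5 and 6 were at 8952 and 4622 and the other 8 at 446 to 901. With all rats the log2 fold change was 1.31 (standard error 0.49, edgeR adjusted p = 0.108), and -0.26 (standard error 0.14, adjusted p = 0.307) without these 2. A fit of all 4 groups called it with them (1.33, adjusted p = 0.0126). Latent infancy-onset SE rats (310 to 482, median 386, n = 10) and controls (275 to 507, median 432, n = 10) overlapped almost fully, with a log2 fold change of -0.10 (standard error 0.11, adjusted p = 0.684).

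At the chronic stage the libraries richest in miR-204-5p were controls. Adult-onset SE rats ran from 344 to 1044 CPM (median 735, n = 10) and their controls from 537 to 4280 (median 756, n = 10). This comparison gave a log2 fold change of -0.66 (standard error 0.34, edgeR adjusted p = 0.335), and 0.01 (standard error 0.17, adjusted p = 0.973) without controls 7 and 8. Infancy-onset SE rats ran from 537 to 1052 (median 709, n = 10) and their controls from 436 to 4717 (median 786, n = 9). The log2 fold change was -0.71 (standard error 0.35, adjusted p = 0.776), and -0.07 (standard error 0.21, adjusted p = 0.932) without SE rat 2 and control 7. Over both onset ages the values were -0.26 (adjusted p = 0.67) at the acute stage, where 8.36% of miRNAs were called, 0.62 (0.171) at the latent and -0.66 (0.193) at the chronic stage, and 0.10, -0.21 and -0.04 without the libraries of raised marker lists.

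**Figure D3:**
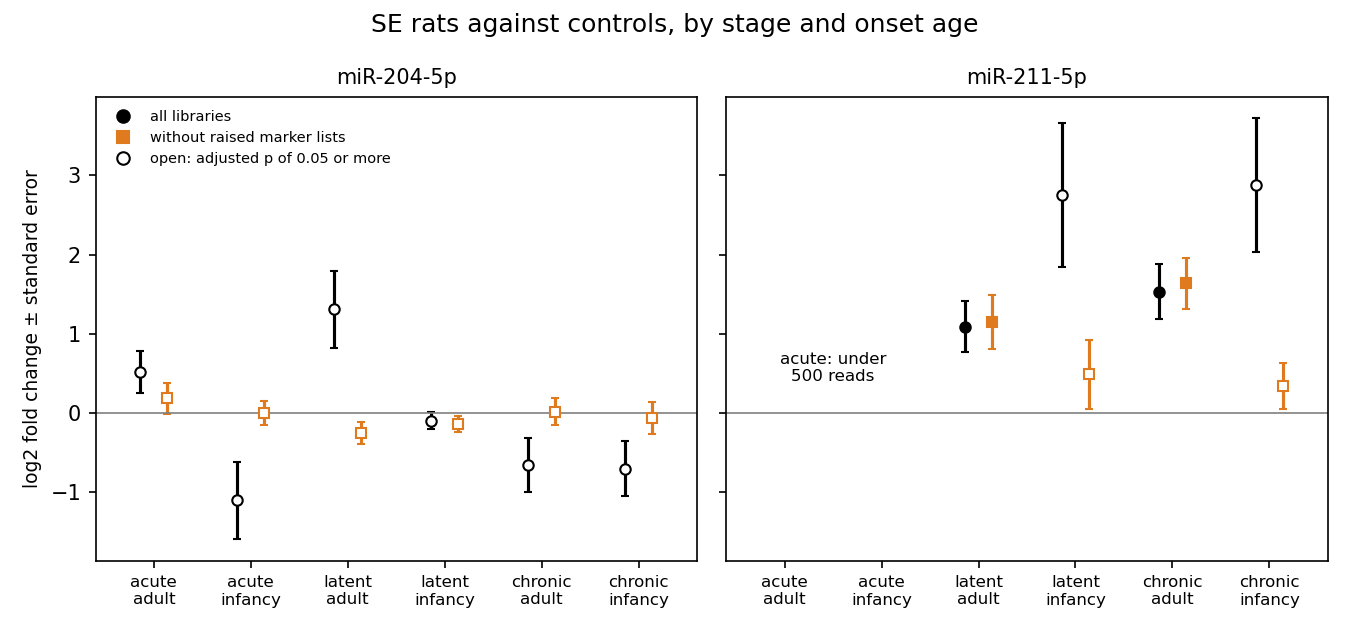
Log2 fold change of SE rats against controls with its standard error for miR-204-5p (left) and miR-211-5p (right), with all libraries (circles) and without the libraries of raised marker lists (squares). Filled symbols have an adjusted p under 0.05, and only the adult-onset latent and chronic values of miR-211-5p are filled, 1.09 and 1.53 with all libraries.

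The summed reads of both members stand for the pool that carries the shared seed. By group median miR-211-5p made up only 0.151% to 3.03% of this sum, so the sum had to follow miR-204-5p. The log2 fold changes after SE were 0.51 and -1.11 in acute adult-onset and infancy-onset rats, 1.31 and -0.05 in latent rats and -0.63 and -0.63 in chronic rats. The smallest edgeR adjusted p of the 6 was 0.107, that of latent adult-onset rats. Without the libraries of raised marker lists the 6 values ran from -0.24 to 0.18.

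The log2 ratio of miR-211-5p to miR-204-5p reads, with 0.5 added to each count, compares the members within a library and needs no scaling. In chronic adult-onset rats it ran from -6.23 to -4.30 (median -4.99, n = 10) after SE and from -10.95 to -5.53 (median -6.98, n = 10) in controls. All 10 SE rats were above the control median and 6 above every control. The means differed by 1.97 (two-sided permutation test, p = 0.00058, adjusted over the 6 comparisons p = 0.00348), and by 1.70 without controls 7 and 8 (exact permutation test, adjusted p = 0.00411). Leaving out any 1 library gave 1.55 to 2.15, all with an adjusted p under 0.05.

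In latent adult-onset rats the ratio ran from -9.79 to -4.97 (median -5.68, n = 10) after SE and from -8.82 to -5.94 (median -6.87, n = 10) in controls. Of the SE rats 7 lay above every control and 1, rat 5, lay below every control. The means differed by 0.72 (permutation test, p = 0.244, adjusted p = 0.244). Without SE rats 5 and 6 the difference was 1.43 (exact permutation test, adjusted p = 0.00658), and 7 of the other 8 were above every control. Rats 5 and 6 had the lowest ratios of their group and the highest miR-204-5p. Leaving them out therefore had to raise the difference, and its p-value is not an independent test.

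In chronic infancy-onset rats the ratio ran from -7.53 to -1.004 (median -6.39, n = 10) after SE and from -8.91 to -6.59 (median -7.17, n = 9) in controls. Of the SE rats 6 lay above every control. The means differed by 1.27 (exact permutation test, p = 0.0165, adjusted p = 0.0496). The call did not hold without any 1 of 15 of the 19 libraries (adjusted p up to 0.0784), which were SE rats 1, 2, 3, 4, 5, 7, 8 and 9 and controls 1, 2, 3, 7, 8, 9 and 10. Without SE rat 2 alone the difference was 0.70 (exact permutation test, adjusted p = 0.0784), and without SE rat 2 and control 7 it was 0.51 (exact permutation test, adjusted p = 0.117).

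The ratio differed by 1.36 in latent infancy-onset rats (permutation test, adjusted p = 0.0784) and by 0.84 without SE rat 4 (exact permutation test, adjusted p = 0.132). At the acute stage the adult-onset and infancy-onset differences had opposite signs, -1.26 (exact permutation test, p = 0.0649, adjusted p = 0.0784) and 1.36 (exact permutation test, p = 0.042, adjusted p = 0.0784). Without SE rat 6 the first was -0.80 (exact permutation test, adjusted p = 0.132). Few reads of miR-211-5p stood behind both. The infancy-onset difference passed without SE rat 8 (1.64, exact permutation test, adjusted p = 0.0331) or without control 3 (1.57, exact permutation test, adjusted p = 0.0448). The acute adult-onset SE libraries were also the shallowest, with a median of 562003 miRNA reads against 1838745 in their controls, and 2 of these 9 had no read of miR-211-5p. Without any filter on low counts, the edgeR log2 fold change of miR-211-5p at the acute stage was -0.51 (standard error 0.42, adjusted p = 0.514) after adult-onset and 1.01 (standard error 0.59, adjusted p = 0.414) after infancy-onset SE.

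**Figure D4:**
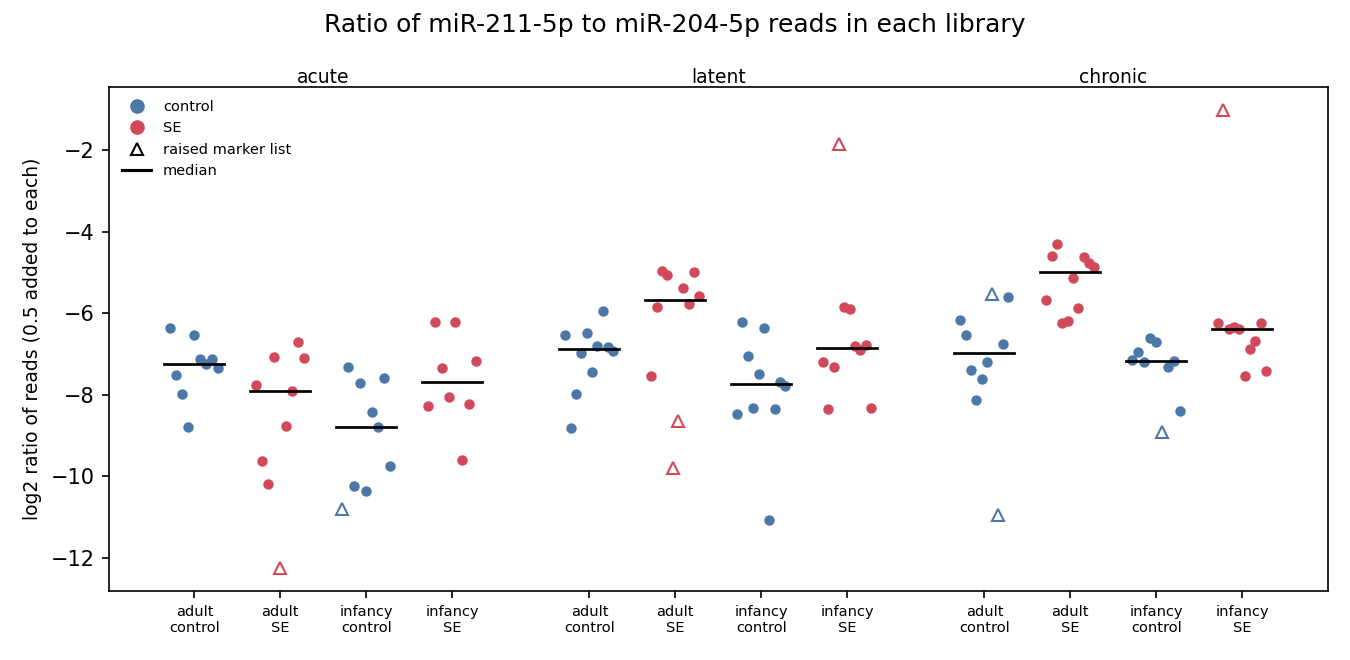
Log2 ratio of miR-211-5p to miR-204-5p reads (0.5 added to each) in each library, by stage, onset age and treatment, with group medians as black lines and open triangles for libraries with a raised marker list. In chronic adult-onset rats the median was -4.99 after SE and -6.98 in controls.

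Among rats of the same group the correlation between the members was mostly above 0, in 9 of 12 groups by Pearson's r. Over the 12 groups of 8 to 10 rats the Pearson correlation of their log2 levels ran from -0.39 to 0.68, and none passed adjustment over the 12 (permutation tests, smallest adjusted p = 0.388). Spearman's rho ran from -0.18 to 0.93 and passed in 1 group, the chronic infancy-onset controls (rho = 0.93, exact permutation p = 0.00075, adjusted p = 0.00899, n = 9). In that group Pearson's r was 0.68 (exact permutation p = 0.0969, adjusted p = 0.388), and 0.90 without the 2 rats farthest from the median of miR-204-5p. Without control 7, which had the raised Htr2c list, rho was 0.90 (exact permutation test, adjusted p = 0.0548) and r was 0.75. Without the libraries of raised marker lists r was above 0 in 10 of 12 groups, and in acute infancy-onset controls it went from 0.45 to 0.78 without control 2 (exact permutation p = 0.0327, adjusted p = 0.158). In the chronic adult-onset SE rats, where miR-211-5p rose, r was 0.12 and rho was -0.18 (permutation tests, adjusted p = 0.843 and 0.975), and r was 0.26 without the 2 farthest rats.

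The control rats of the infancy-onset and adult-onset arms were compared at each stage. With all libraries neither member passed this test at the latent stage, nor miR-204-5p at the acute stage, and leaving out 1 library changed each of these calls. These arms differ in age at injection, in age at sampling and in the range of their library numbers, which cannot be told apart. They were compared in a fit of all 4 groups of a stage. miR-204-5p in the infancy-onset controls of the latent stage (275 to 507 CPM, median 432) lay below every latent adult-onset control (538 to 855, median 731). The log2 difference was -0.80 (standard error 0.38, edgeR adjusted p = 0.0657), and -0.80 (standard error 0.12, adjusted p = 1.23e-07) without the libraries of raised marker lists, all of which were SE rats at that stage. Without latent adult-onset SE rat 5 alone the adjusted p was 0.0105. This comparison called 57.6% of all miRNAs. At the acute stage 8 of 9 infancy-onset controls (457 to 820) lay below every adult-onset control (899 to 2051) and 1, control 2, lay above all of them at 7931. The log2 difference was 0.07 (standard error 0.41, adjusted p = 0.89), and -1.06 (adjusted p = 0.000159) without control 2, where the comparison with all libraries called 67.1% of miRNAs. At the chronic stage, where 6.56% were called, the arms overlapped and the difference was 0.19 (standard error 0.36, adjusted p = 0.74). That value was -0.45 (adjusted p = 0.349) without infancy-onset control 7 and 0.79 (adjusted p = 0.0892) without adult-onset control 8.

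miR-211-5p ran from 0 to 3.91 CPM (median 1.33, n = 9) in acute infancy-onset controls and from 2.59 to 15.8 (median 9.51, n = 9) in acute adult-onset controls. Without a filter on low counts the log2 difference was -2.27 (standard error 0.51, edgeR adjusted p = 0.000254). At the latent stage the difference was -1.40 (standard error 0.75, adjusted p = 0.105), and -1.40 (standard error 0.41, adjusted p = 0.00364) without the libraries of raised marker lists. Leaving out latent infancy-onset SE rat 4 alone gave an adjusted p of 0.00319. At the chronic stage it was -0.10 (standard error 0.68, adjusted p = 0.927). The log2 ratio of the members was lower by 1.66 in acute infancy-onset controls (difference -1.66, exact permutation test, p = 0.00539, adjusted over 3 comparisons p = 0.0162), and its difference was -0.81 (permutation test, adjusted p = 0.186) at the latent and -0.19 (exact permutation test, adjusted p = 0.763) at the chronic stage. With so few reads the size of the acute difference depended on the 0.5 added to each count. It was -1.20 (exact permutation test, adjusted p = 0.0358) with 1 added. With libraries under 10 reads of miR-211-5p left out, the acute comparison had no value.

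The opposite arms were rare. miR-204-3p had 157 reads at the acute, 212 at the latent and 1388 at the chronic stage and was tested only at the last. At the chronic stage it ran from 1.45 to 4.05 CPM (median 2.22) after adult-onset SE, while adult-onset controls ran from 0 to 12.97 (median 2.56). The log2 fold change was -1.09 (standard error 0.47, edgeR adjusted p = 0.232), in the same direction as that of miR-204-5p with all libraries. After infancy-onset SE it was -0.80 (standard error 0.53, adjusted p = 0.865). With the libraries of raised marker lists left out, the values were -0.70 (adjusted p = 0.454) and -1.29 (adjusted p = 0.437), where those of miR-204-5p were 0.01 and -0.07. miR-211-3p had 1 read in each of 3 chronic infancy-onset controls beside the 297 of chronic infancy-onset SE rat 2, and 0 in every chronic adult-onset rat, SE rats included.

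As a description, the members shared only miR-505-3p among the 5 miRNAs nearest to each. Group means were removed and 378 miRNAs with over 500 reads at every stage, and miR-211-5p, were ranked by Spearman correlation over all libraries, where each library's depth and scaling is shared by its miRNAs. Nearest to miR-204-5p were miR-1298 (0.49), miR-448-3p (0.47), miR-125a-5p (0.43), miR-505-3p (0.41) and miR-448-5p (0.40), of which 3 lie in the Htr2c gene. Over the 105 libraries without raised marker lists the order changed. miR-125a-5p came first (0.47) and miR-1298 second (0.43), while miR-448-3p (0.39) was at rank 6, miR-505-3p (0.33) at rank 16 and miR-448-5p (0.33) at rank 17. Nearest to miR-211-5p were miR-132-5p (0.35), miR-132-3p (0.33), miR-505-3p (0.26), miR-125b-1-3p (0.25) and miR-212-5p (0.24), all weak and resting on few reads. Over the 105 libraries miR-132-5p (0.37) and miR-132-3p (0.30) stayed first and second. There miR-212-5p (0.27) was at rank 3, miR-505-3p (0.26) at rank 4 and miR-125b-1-3p (0.17) at rank 12. The correlation between the members was 0.16.

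Lists of miRNAs known from other cell types moved in some of the same comparisons. Of all tested miRNAs 3.66% were called in acute adult-onset, 4.96% in acute infancy-onset and 7.39% in latent adult-onset rats. In latent infancy-onset rats 0.493% were called, in chronic adult-onset rats 1.36% and in chronic infancy-onset rats 0.0%. Of the Htr2c list, 1 of 3 tested members rose in acute adult-onset rats, miR-448-5p (log2 fold change 2.00, edgeR adjusted p = 0.0265), and 2 of 4 in latent adult-onset rats, miR-1298 (3.39, adjusted p = 0.014) and miR-448-3p (2.68, adjusted p = 0.0351), with a list median of 1.64 beside -0.03 over all miRNAs. Without acute adult-onset SE rat 6, miR-448-5p was at 1.88 (adjusted p = 0.0519). Without latent adult-onset SE rats 5 and 6, which were chosen by this list, miR-1298 was at -0.03 (standard error 0.22). miR-448-3p was then at -0.19 (standard error 0.24), and neither was called. None of the Htr2c list passed in the other 4 comparisons of SE with control. Its list medians there were -1.47 in acute and 0.18 in latent infancy-onset rats, and -2.42 in chronic adult-onset and -1.66 in chronic infancy-onset rats. Of the miR-183 cluster, 0 of 2 tested members passed at the acute and 0 of 3 at the later stages in each onset age, with list medians of 4.52 in latent and 4.01 in chronic infancy-onset rats. Without the libraries of raised marker lists its members were at -0.71 to -0.21 in latent and at -0.32 to 0.62 in chronic infancy-onset rats. From the remaining lists, 2 of 5 ciliated and ependymal miRNAs (miR-34b-3p at 0.90 and miR-34c-3p at 0.98) and 1 of 2 epithelial miRNAs (miR-200c-3p at 1.39) rose in latent adult-onset rats, and the erythroid miR-144-5p fell in latent infancy-onset rats (-0.96). Without latent adult-onset SE rats 5 and 6 both ciliated calls were lost (0.46, edgeR adjusted p = 0.169, and 0.70, adjusted p = 0.144), while miR-200c-3p stayed called (1.42, adjusted p = 0.0259). Without latent infancy-onset SE rat 4, miR-144-5p was at -1.08 (edgeR adjusted p = 0.00624). The erythroid miR-451-5p was then called lower as well (-0.56, adjusted p = 0.00883), and miR-144-3p was not (-0.72, adjusted p = 0.29). With all libraries no neuronal miRNA passed in the 6 comparisons of SE with control within an onset age. Without acute infancy-onset control 2, miR-128-3p was called lower in acute infancy-onset rats (-0.37, edgeR adjusted p = 0.049). It was also called lower over both onset ages at the acute stage with all libraries (-0.26, edgeR adjusted p = 0.0316), where 8.36% of miRNAs were called.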

How the data were processed

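Small RNA of whole hippocampus was sequenced, 1 library per rat. Of 120 labelled libraries, 114 had counts and were used, and 6 were not analysed here. The authors trimmed reads, kept 16 to 28 bases and assigned them to miRBase v22 with seqBuster, allowing 1 mismatch. The genome build behind the assignment is not given in the sources used here. The authors deposited raw read counts and a signal, their normalized reads, the counts divided by 1 size factor per library. The submitters' processing notes name DESeq2 1.16.1. Columns of the authors' own comparisons were not used.

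For the counts, edgeR 4.0.16 (R 4.3.3) was run with TMM scaling and its quasi-likelihood test, on miRNAs with more than 500 reads over a stage. p-values were adjusted over all tested miRNAs (Benjamini-Hochberg), and an adjusted p under 0.05 was a call. Standard errors are the absolute log2 fold change over the square root of F. p-values of group differences weigh the difference against the spread between these libraries. The edgeR test was tried on counts simulated from the chronic adult-onset means and depths, with the same dispersion for every miRNA and no outlying library. The ratio and correlation tests were not tried on simulated data. Ratios and correlations used permutation tests (scipy 1.17.1, 100000 permutations, exact under 10 rats in a group), with a pseudocount of 0.5 for ratios. Alternatives were DESeq2 1.42.0, limma 3.58.1 (voom, and limma-trend on log2 of normalized reads plus 1), other scalings, no filter, a fit of all 4 groups, and leaving out libraries. Sequences are from RefSeq (GRCr8), where 600 of the listed names matched.

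The text names both members, their opposite arms, the 5 miRNAs nearest to each member and list members passing the test, up to 4 a list. Lists were the Htr2c gene (choroid plexus), ciliated and ependymal cells, the miR-183 cluster (photoreceptor and pineal), epithelium, erythroid cells and neurons. The members and lists were chosen with earlier results of these data known.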

Additional observations from a re-analysis of the deposited data

Results flagged for a closer look

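Dixon's test at 95% was run on the log2 levels of both members and on their log2 ratio in the 12 groups (36 in all), where chance flags about 1 in 20, or 1.8. It marked 11 values. Of miR-204-5p, the highest were acute infancy-onset control 2 (7931 CPM, next 819.5), chronic adult-onset control 8 (4280, next 881) and chronic infancy-onset control 7 (4717, next 1344), all libraries with a raised Htr2c list, and the lowest was latent infancy-onset control 10 (275.5, next 373). Of miR-211-5p, the highest were latent infancy-onset SE rat 4 (133.9, next 7.62) and chronic infancy-onset SE rat 2 (376.8, next 9.78), both with a raised miR-183 cluster, and the lowest was chronic infancy-onset control 10 (1.03, next 4.30).

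The ratio marked the same 2 SE rats as highest in their groups, at -1.85 (next -5.84) and -1.004 (next -6.23). It was lowest in chronic adult-onset control 8, at -10.95 (next -8.14), and in latent infancy-onset control 7, at -11.06 (next -8.46), which had 0 reads of miR-211-5p beside 1070 of miR-204-5p.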

How the results depend on the processing

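No paired analysis was possible because replicate numbers only follow the order of deposition and no label pairs rats. In the settings named below the cause of a change was not tested unless leaving out a library shows it. With the values tested again, 1017 with 1 library left out and 170 under another setting kept their direction and their side of the threshold. With 1 library left out, 11 others reversed direction, 25 lost their call and 4 gained one. Under another setting 23 reversed direction, 5 lost their call and 9 gained one. Values are log2 fold changes or differences, with edgeR unless named. miR-211-5p kept its direction after SE in every setting run at the latent and chronic stages, within an onset age and over both. Reads of miR-211-5p limit the acute stage, and in the ratio the acute and latent infancy-onset comparisons had no value with libraries under 10 reads left out.

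Fitting all 4 groups gave 1.11 for latent and 1.57 for chronic adult-onset miR-211-5p (not called), 2.76 for latent infancy-onset miR-211-5p (adjusted p = 0.0376) and 1.33 for latent adult-onset miR-204-5p (adjusted p = 0.0126). DESeq2, which replaces outlying counts, gave miR-211-5p differences between onset ages of 0.52 at the latent and 1.31 at the chronic stage and a latent control arm difference of -1.46 (adjusted p = 0.000505). For miR-204-5p it gave 0.21 over both onset ages at the acute stage, and control arm differences of -0.016 at the acute and -0.84 (adjusted p = 0.00852) at the latent stage. limma voom gave miR-204-5p 0.024 and -0.028 over both onset ages at the acute and latent stages, and control arm differences of -0.9992 (adjusted p = 0.00028) and -0.87 (adjusted p = 0.000797). It gave miR-211-5p 0.98 over both onset ages at the latent stage (adjusted p = 0.0683), differences between onset ages of 0.39 and 1.28, and control arm differences of -1.63 (adjusted p = 0.00454) at the latent and 0.035 at the chronic stage. The acute control arm difference of miR-204-5p was -0.026 with RLE scaling and -0.021 with no filter on low counts.

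Without the libraries of raised marker lists, miR-204-5p was at 0.10 and -0.21 over both onset ages at the acute and latent stages, -0.26 in latent and 0.011 in chronic adult-onset rats, -0.10 for the latent difference between onset ages, and -1.06 and -0.80 for the acute and latent control arms (both called). miR-211-5p was at 0.68 and 1.38 for the differences between onset ages and -1.40 for the latent control arms (called). The summed reads were at -0.24 in latent and 0.040 in chronic adult-onset rats. The ratio differed by 1.43 in latent adult-onset rats (called) and 0.51 in chronic infancy-onset rats (not called), where it differed by 1.164 (exact permutation test, adjusted p = 0.0785) with libraries under 10 reads of miR-211-5p left out. Pearson's r of acute adult-onset SE rats was 0.30 there against -0.26.

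Leaving out 1 library at a time moved miR-204-5p from -0.45 to 0.28 over both onset ages at the acute stage, its control arm difference from -1.06 to 0.19 at the acute, -0.84 to -0.75 at the latent and -0.45 to 0.79 at the chronic stage, and its chronic difference between onset ages from -0.51 to 0.75. For miR-211-5p the ranges were 0.92 to 1.27 in latent and 1.34 to 1.75 in chronic adult-onset rats, -1.93 to 0.61 and -1.52 to 1.37 for the latent and chronic differences between onset ages, and -1.68 to -1.23 and -0.21 to 0.13 for the latent and chronic control arms. The summed reads of chronic infancy-onset rats ran from -0.76 to 0.0020. The ratio ran from 1.13 to 1.64 in acute and 0.70 to 1.42 in chronic infancy-onset rats and from -0.61 to 0.0018 for the chronic control arms.

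The number of miRNAs called moved by over 1.5 times in several comparisons. Over the settings it ran from 10 to 30 in acute adult-onset, 11 to 37 in acute infancy-onset, 23 to 54 in latent adult-onset, 0 to 10 in latent infancy-onset, 4 to 27 in chronic adult-onset and 0 to 5 in chronic infancy-onset rats, against 14, 19, 30, 2, 6 and 0. Over both onset ages it ran from 29 to 51 at the latent and 6 to 12 at the chronic stage, against 51 and 10. For the difference between onset ages it ran from 0 to 4 at the acute and 0 to 85 at the chronic stage, against 1 and 4, and for the chronic control arms from 22 to 151, against 29. The highest 2 of these, 85 and 151, came from limma voom.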
